A study of Bos taurus with 6 samples.

Results

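The genes described here are 47 genes of the actin cytoskeleton and of the transcriptional programmes of SRF and YAP, chosen by name and not by any measured value. The array annotation held 46 of them among 15229 genes, and YAP1 was not on the list of annotated symbols. All 46 were above background (on 3 or more arrays of a condition), as were 12200 of the 15229 genes. A gene was read by its probe with the highest mean intensity, and the 46 genes had 67 probes in all.

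Actin monomers are assembled into filaments by nucleators such as the Arp2/3 complex, are supplied and removed by profilins and cofilins, and are bundled, capped and anchored at focal adhesions under the control of small GTPases and ROCK kinases. When monomeric actin is used up, its binding partners of the MRTF family enter the nucleus and, with serum response factor (SRF), drive genes that encode actin and contractile proteins. YAP, the effector of the Hippo kinases, enters the nucleus in cells with many actin filaments and drives genes such as CTGF and CYR61 with TEAD factors. In the mouse ovary, actin polymerisation and YAP activity in granulosa cells are known to accompany the growth of follicles.

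The cells were bovine granulosa cells, the somatic cells around the oocyte, taken from follicles of 2 to 6 mm of Holstein crossbred cattle and grown for 5 days in serum-free medium that held FSH and insulin, each at 10 ng/ml. Treated cells were then exposed for 2 h to 10 ng/ml of FGF18, a fibroblast growth factor, and control cells, which had the same FSH and insulin, received none. The labels mark the control with T0 and do not say when its RNA was taken, so exposure and time in culture cannot be told apart. Each of 3 biological replicates was hybridised to 2 arrays with the dyes exchanged, with FGF18 and control RNA together on each array. Between 45.7% and 73.5% of probes per channel were above background. Precision is limited by the number of arrays. In replicate 2, spike-in control spots of the array with the control in Cy5 were dim in both channels. Their median raw intensity was 1100 in Cy5, against 9505 to 12293 on the other arrays. In Cy3 it was 483, against 5122 to 15970. That array is left out in turn where it moves a count. As RNA of whole cultures was measured, fewer cells of a type and less RNA per cell cannot be told apart.

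Of the 14 listed granulosa markers 12 were above background, while FOXL2 and HSD17B1 were not above background on any array, and CYP19A1 was above it on 2 arrays in the FGF18 channel and on 4 in the control channel. All 12 listed markers of theca and stroma were also above background, with a summed normalised intensity of 69620 to 93853 in FGF18 and 73021 to 95475 in control samples. In the FGF18 channel 9 of the 12 were above it on all 6 arrays. LHCGR was above it on 1 array in the FGF18 channel and 3 in the control channel, CYP17A1 on 3 and 4, and PDGFRB on 3 and 3. The brightest of this list were PDGFRA, LUM and COL3A1, at mean log2 intensities of 14.79, 14.68 and 13.97. The granulosa list summed to 72756 to 101711 in FGF18 and 72322 to 119789 in control samples. The part of other cell types in the ratios below was not tested.

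The treated and untreated cells were compared to ask whether transcripts of the cytoskeleton and its SRF and YAP targets differed after 2 h. No member passed the test: with limma and Benjamini-Hochberg adjustment over all 15229 genes, 0 of 46 members fell under 0.05, the lowest adjusted value among them being 0.986. Over all genes the share past this threshold was 0.0%. At an unadjusted p under 0.05 in limma there were 2 members, FLNA (higher) and RHOB (lower). They are 4.35% of the members, against 3.49% of all genes and 4.32% of genes above background. Among probes brighter than the median of genes above background, it was 1 of 35 members, 2.86% against 5.84%. The count of 2 members became 0 without replicate 1 or without the FGF18-in-Cy5 array of replicate 2. It became 4 without replicate 3 or without the control-in-Cy5 array of replicate 2. The shares of all genes under these settings are not given here. The median of members, as the log2 ratio of FGF18 over control, was -0.03, with medians of -0.01, -0.05 and 0.01 in replicates 1, 2 and 3, and it was -0.0747 without replicate 1 and 0.0172 without replicate 2. The median of all genes above background was -0.01. Ratios are on the log2 scale, FGF18 over control, and are given as the mean ± SD of n = 3 replicates, and the direction words describe values that did not pass the test.

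Of the 46 members, 12 had the same sign in all 3 replicates. ACTR2, ARPC3, PFN2, FLNA and CNN2 were on the higher side, which is 10.9% of the members against 12.5% of genes above background. ACTA2, ACTN4, CFL2, TPM4, CNN3, AMOTL2 and RHOB were on the lower side, 15.2% of the members against 11.2%. Without replicate 1 the 2 remaining replicates shared a sign in 23 members, without replicate 2 in 26 and without replicate 3 in 21. A shared sign is more common in 2 replicates than in 3. Its share over all genes was not counted, so these counts are no result about the members. On all 6 arrays the sign was the same for ACTR2, ARPC3 and FLNA (higher) and for ACTN4, CFL2 and RHOB (lower). These 6 are 13.0% of the members, against 8.49% of genes above background in either direction. Among probes brighter than the median of genes above background, the shares were 14.3% of 35 members against 11.2%. The other 34 members had mixed signs between replicates.

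**Figure D1:**
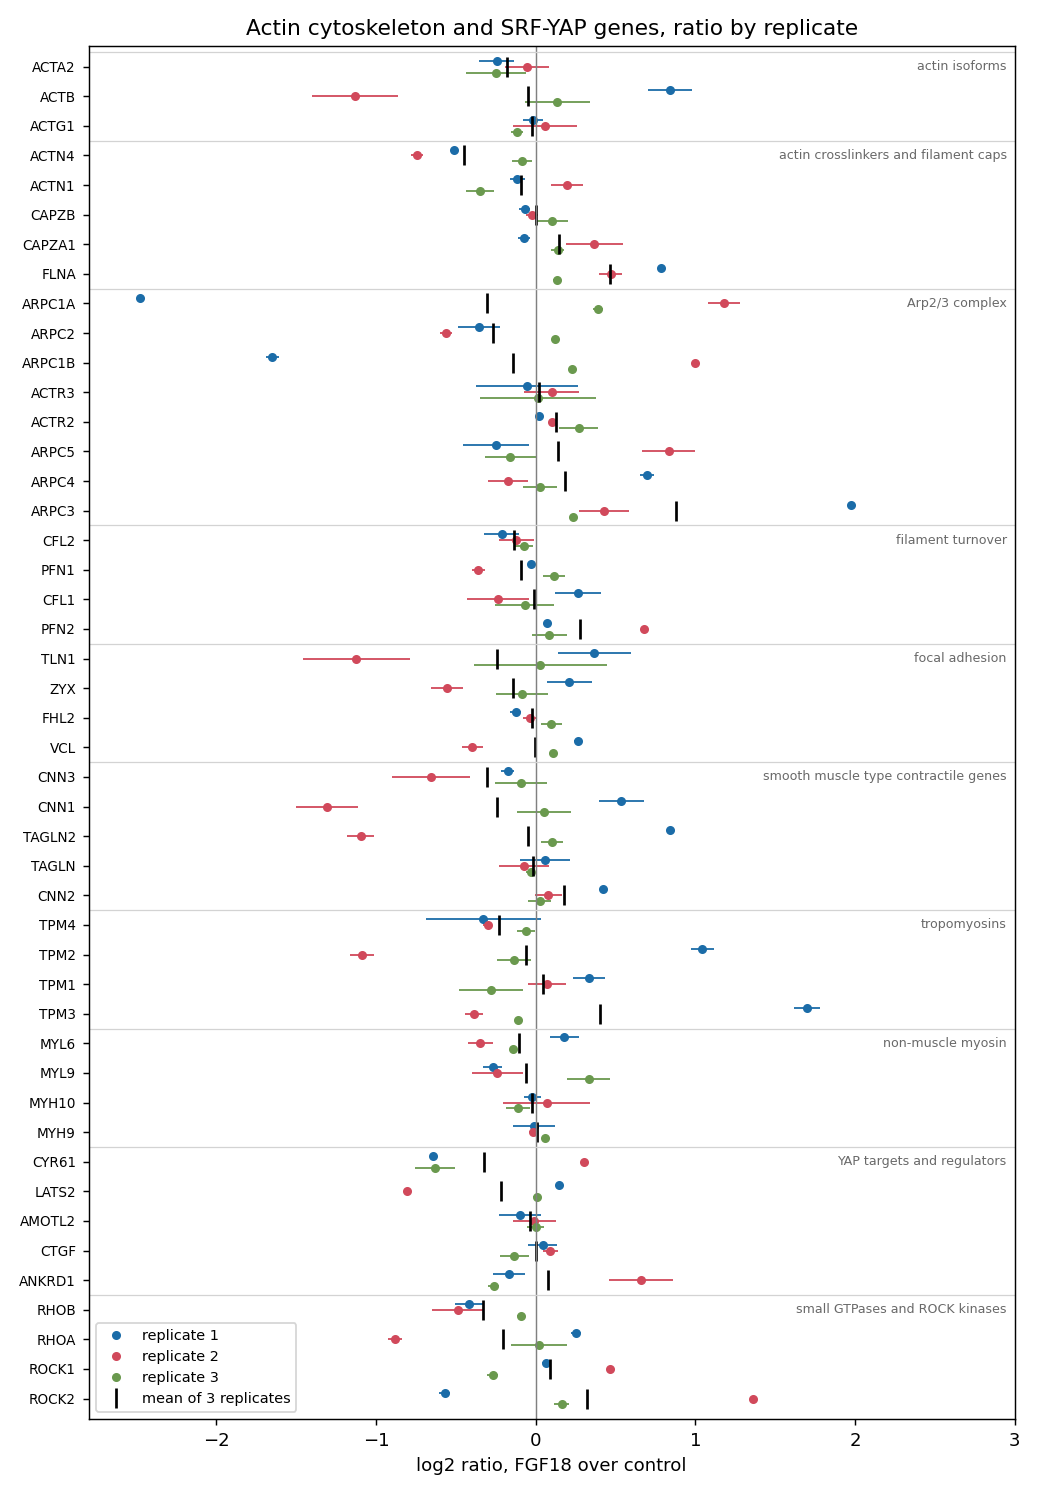
Log2 ratio of FGF18 over control for the 46 members, ordered by role and then by mean; each dot is 1 replicate, the line through it spans its 2 arrays of opposite dye orientation, and the black bar is the mean of 3 replicates. Most means lie near 0, while ARPC1A reaches from -2.48 to 1.18 and TPM3 from -0.38 to 1.70.

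Among the small GTPases and their kinases, RHOB, an immediate early gene that encodes an endosomal small GTPase, had ratios of -0.42, -0.49 and -0.09 in replicates 1, 2 and 3. It was lower in all replicates and on all 6 arrays, with a mean of -0.33 ± 0.21, or 1.26-fold lower, and a 95% interval of the mean from -0.64 to -0.02. Its adjusted p in limma was 0.986. RHOA, the small GTPase that drives stress fibres, had ratios of 0.25, -0.88 and 0.02, so that only replicate 2 stood far from 0. Its dimmer probe gave 0.32, -0.24 and 0.07, with the same order of the replicates and a smaller span. ROCK1 and ROCK2, the kinases activated by RHOA, had 0.09 ± 0.37 and 0.32 ± 0.98. ROCK2 stood at -0.57 in replicate 1, 1.36 in replicate 2 and 0.16 in replicate 3, and its replicates therefore disagreed in sign.

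The actin isoforms behaved differently from each other between replicates. ACTG1, cytoplasmic gamma-actin, had ratios of -0.01, 0.06 and -0.12, a mean of -0.02 ± 0.09 with a 95% interval from -0.22 to 0.17. ACTB, cytoplasmic beta-actin, had 0.84, -1.13 and 0.14, a mean of -0.05 ± 1.00. Both means were close to 0, but ACTB was 1.79-fold higher in replicate 1 and 2.19-fold lower in replicate 2, whereas the replicate of ACTG1 farthest from 0 was 1.08-fold lower. ACTA2, the smooth muscle alpha-actin and a classical SRF target, had -0.24, -0.06 and -0.25. It was lower in all 3 replicates by a small amount, -0.18 ± 0.11, with a 95% interval from -0.40 to 0.03.

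The log2 normalised intensity of ACTB in the FGF18 channel was 10.33, 9.91 and 9.74 in replicates 1, 2 and 3, and in the control channel it was 9.49, 11.04 and 9.60. The FGF18 samples thus lay within a narrow band, and the control of replicate 2 was the highest of the 6 samples and the control of replicate 1 the lowest. The groups overlapped. ACTB is a common reference gene for quantitative PCR, and in these samples its control levels had an SD of 0.865 on the log2 scale, against 0.0944 for ACTG1. Each was read by 1 probe, at a mean log2 intensity of 10.01 for ACTB and 15.13 for ACTG1. Whether this spread belongs to the ACTB transcript or to its probe was not tested.

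Of the crosslinkers and filament caps, FLNA, filamin A, which links actin filaments to each other and to membrane proteins, had ratios of 0.79, 0.47 and 0.13. It was higher in all replicates and on all 6 arrays, with a mean of 0.46 ± 0.33, or 1.38-fold, a 95% interval from 0.01 to 0.91 and an adjusted p of 0.986. Its probe was above background on 6 arrays in the FGF18 channel and 5 in the control channel. ACTN4, an alpha-actinin that bundles filaments, had -0.51, -0.74 and -0.09, a mean of -0.45 ± 0.33 or 1.36-fold lower, also on all 6 arrays. Its other probe had a mean of the other sign, 0.10, with 0.19, 0.13 and -0.03. ACTN1, the second non-muscle alpha-actinin, had -0.09 ± 0.27, and the capping protein subunits CAPZA1 and CAPZB had 0.14 ± 0.22 and 0.00 ± 0.09.

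The Arp2/3 complex, which starts branched filaments, held both the highest mean ratio of the members and the widest spread. ARPC3, a small subunit, had ratios of 1.97, 0.43 and 0.23, all higher, on all 6 arrays. Its mean of 0.88 ± 0.95, or 1.84-fold, had a 95% interval from -0.35 to 2.10. The FGF18 levels of ARPC3 were 10.83, 10.56 and 10.31, and its control levels were 8.85, 10.13 and 10.07, so the groups did not overlap. Every FGF18 sample lay above every control sample, and the ratio of replicate 1 came with a low control level. The levels of ACTR2 (FGF18 higher) and of ACTA2 and TPM4 (FGF18 lower) did not overlap either. The share of all genes without overlap was not counted, so the lack of overlap is no result about these members.

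ARPC1A and ARPC1B are alternative isoforms of 1 subunit of the complex. ARPC1A had ratios of -2.48, 1.18 and 0.39, a mean of -0.30 ± 1.92 with a 95% interval from -2.76 to 2.15. ARPC1B had -1.65, 1.00 and 0.23, a mean of -0.14 ± 1.36. Both isoforms thus followed the same order over the replicates, lowest in replicate 1 and highest in replicate 2. The control level of ARPC1A was 9.73 in replicate 1 against 7.27 and 7.31 in the others, and that of ARPC1B was 9.86 against 8.52 and 8.19. ARPC3, of the same complex, was at its lowest in that control sample.

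Of the other subunits, ACTR2, the actin-related protein ARP2, had 0.02, 0.10 and 0.27, all higher, with a mean of 0.13 ± 0.13. ACTR3, the actin-related protein ARP3, had 0.02 ± 0.08, ARPC4 0.18 ± 0.46, ARPC5 0.14 ± 0.60 and ARPC2 -0.27 ± 0.35. The median of the 8 subunits was -0.15, 0.27 and 0.17 in replicates 1, 2 and 3, with 3, 6 and 7 of the 8 subunits above 0.

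For ACTR3 the sign followed the dyes: the mean was 0.30 over the 3 arrays with FGF18 in Cy5 and -0.26 over the 3 with the control in Cy5. AMOTL2 was the only other member with opposite signs on all arrays of each orientation, at -0.14 and 0.07, so that 4.35% of the members did so against 10.9% of genes above background. Among probes brighter than the median of genes above background, this was 1 of 35 members, 2.86% against 2.23%. The orientations were on separate slides, and the parts of dye and slide cannot be told apart. In limma, in a fit without a term for replicate, the dye term passed an adjusted p of 0.05 in 0.433% of all genes and in 0 of 46 members. That fit does not use the pairing of the 2 arrays of a replicate, so it does not show that differences between orientations were rare. With replicate as a fixed term, many more genes and also some members passed, with the counts given in the last section.

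Of the genes of filament turnover, CFL2, a cofilin that severs filaments, had -0.21, -0.12 and -0.07. It was lower on all 6 arrays by a mean of only -0.14 ± 0.07. PFN2, a profilin that delivers actin monomers, had 0.07, 0.68 and 0.09, higher in all replicates but mainly in replicate 2, with a mean of 0.28 ± 0.35. The more widely expressed paralogues had means near 0, at -0.01 ± 0.26 for CFL1 and -0.09 ± 0.24 for PFN1.

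The 4 focal adhesion genes were VCL, vinculin, which ties filaments to adhesions; TLN1, talin, which activates integrins; ZYX, zyxin, which repairs stress fibres; and FHL2, a LIM protein of adhesions and an SRF target. TLN1 had ratios of 0.37, -1.12 and 0.03, ZYX 0.21, -0.56 and -0.09, and VCL 0.27, -0.40 and 0.11. FHL2 was nearly flat at -0.13, -0.04 and 0.10. In replicate 1, 3 of these 4 genes were above 0, and in replicate 2 none was. The median of the 4 went from 0.24 in replicate 1 to -0.48 in replicate 2, and to 0.06 in replicate 3. The means were -0.24 ± 0.78 for TLN1, -0.14 ± 0.39 for ZYX and -0.01 ± 0.35 for VCL.

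Among the contractile genes of smooth muscle type, CNN1 and TAGLN2 had a like pattern. CNN1, basic calponin, had ratios of 0.54, -1.31 and 0.05, with FGF18 levels of 10.92, 11.58 and 11.95 and control levels of 10.38, 12.89 and 11.90. The control of replicate 2 was again the highest sample and the control of replicate 1 the lowest. TAGLN2, transgelin 2, had 0.84, -1.10 and 0.10, with FGF18 levels of 10.41, 10.56 and 10.86 and control levels of 9.57, 11.66 and 10.76. CNN3, acidic calponin, was lower in all replicates at -0.18, -0.65 and -0.09, a mean of -0.31 ± 0.30, and its other probe gave -0.18, -0.67 and -0.15. CNN2, the neutral calponin, was on the higher side at 0.42, 0.08 and 0.03. TAGLN, transgelin or SM22, an SRF target that marks smooth muscle, was dim, above background on 4 arrays in the FGF18 channel and 3 in the control channel, with a ratio of -0.01 ± 0.07.

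Of 9 smooth muscle and pericyte markers on the array, 7 were above background, and the defining markers MYH11 and LMOD1 were each above it on 0 arrays in the FGF18 channel and 1 in the control channel. The summed intensity of the list was 3309, 3037 and 3375 in FGF18 and 2999, 4328 and 3987 in control samples. Replicate 2 was again the highest control and replicate 1 the lowest. The brightest gene of the list was an actin, ACTG2, at a mean log2 intensity of 10.73. The same order was seen in the leukocyte and blood list, with control sums of 3365, 6548 and 4849, and in the SRF and Hippo lists below. Granulosa, theca and stroma, and endothelium lists had their highest control sum in replicate 1. The part of such cells in the ratios of CNN1 and the other contractile genes was not tested.

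Tropomyosins lie along filaments and set which myosins and regulators bind. TPM2 had ratios of 1.04, -1.09 and -0.14, and TPM3 had 1.70, -0.38 and -0.11. TPM2 control levels were 11.12, 12.94 and 12.29 around FGF18 levels of 12.16, 11.85 and 12.15. TPM3 control levels were 7.89, 10.27 and 9.75 around FGF18 levels of 9.59, 9.88 and 9.64. In both genes the FGF18 samples differed little from each other, while the control samples spanned the FGF18 values on both sides. TPM1 had 0.04 ± 0.31, and TPM4 was lower in all replicates at -0.33, -0.30 and -0.06, a mean of -0.23 ± 0.15.

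Of the 10 members with the widest spread over replicates only TPM2 had other probes, and the wide ratios of the rest come from 1 probe each. A dimmer TPM2 probe repeated the swing of the brightest one with 0.94, -1.63 and 0.13, another gave 0.37, -0.16 and 0.05, and the remaining one was not above background. The other probes of TPM4 disagreed with its brightest probe, at -0.21, 0.78 and -0.17 and at -0.52, -0.05 and 0.37. Of the 11 probes of MYL6, the essential light chain of non-muscle and smooth muscle myosin, the brightest had 0.18, -0.35 and -0.14, while the 3 dimmest had 0.78, 0.74 and 0.89 in replicate 1. Whether the probes of a gene read different transcripts was not tested.

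**Figure D2:**
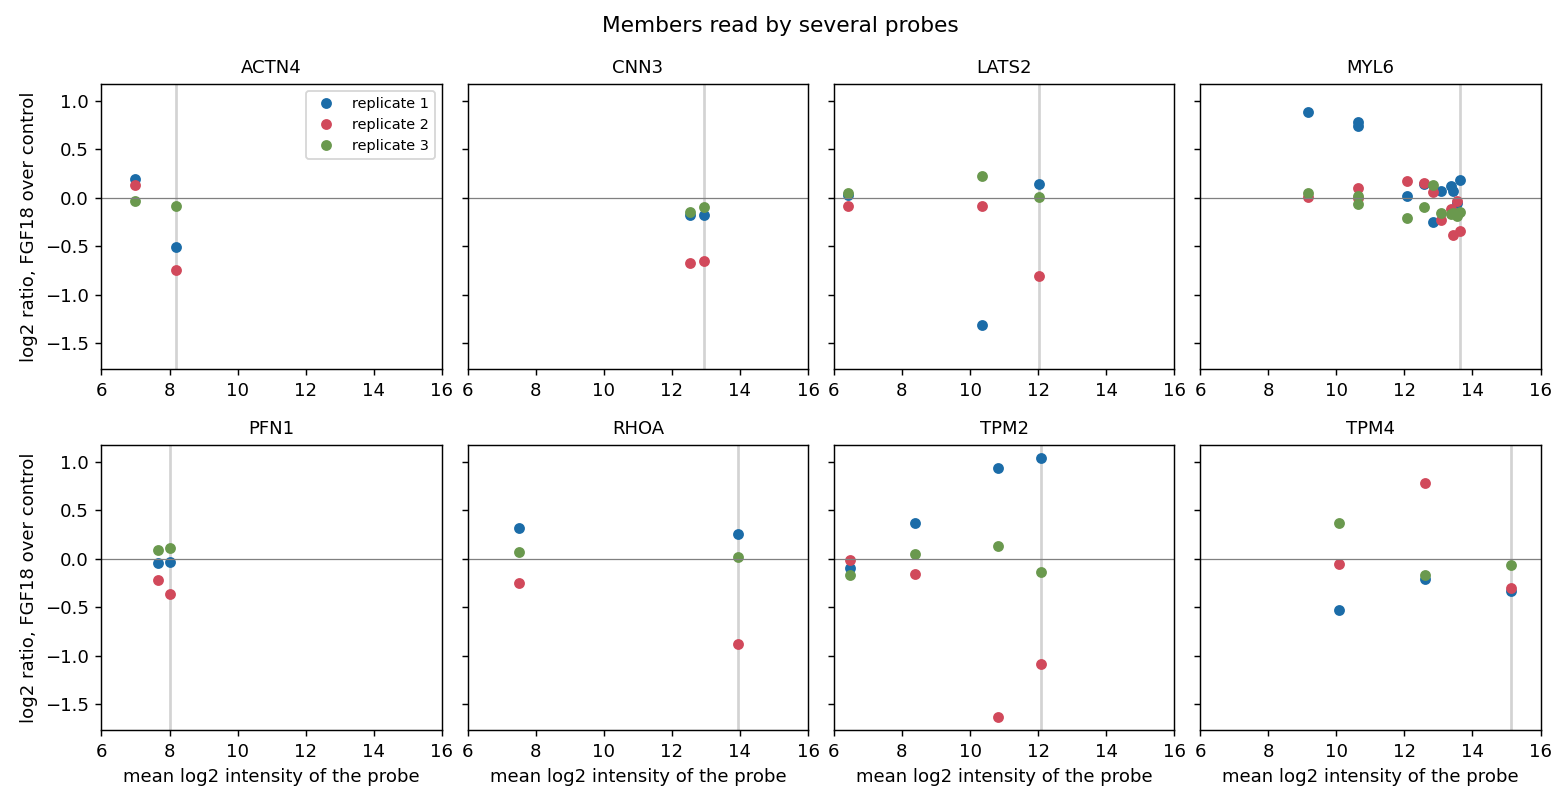
Log2 ratio of FGF18 over control against the mean log2 intensity of the probe, for the 8 members with more than 1 probe; each dot is 1 replicate of 1 probe and the grey line marks the brightest probe, which gives the gene's value. The CNN3 probes lie together, while those of LATS2 and TPM4 differ in sign within a replicate.

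Of the other myosin genes, MYL9, the regulatory light chain and an SRF target, had -0.27, -0.24 and 0.33. MYH9, the heavy chain of non-muscle myosin IIA, had 0.01 ± 0.04 and was above background on 3 arrays in each channel. MYH10, the heavy chain of non-muscle myosin IIB, was above background on 0 arrays in the FGF18 channel and 3 in the control channel, and no fold is given for it.

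Of the YAP targets, CTGF, now named CCN2, a secreted matrix protein and a common readout of YAP activity, had ratios of 0.04, 0.09 and -0.13. Its mean was 0.00 ± 0.12 with a 95% interval from -0.22 to 0.22. CYR61, now CCN1, its close paralogue and also an SRF target, had -0.64, 0.30 and -0.63, a mean of -0.32 ± 0.54 with a 95% interval from -1.03 to 0.39. Replicates 1 and 3 were lower and replicate 2 was higher, with FGF18 levels of 11.47, 11.04 and 11.31 and control levels of 12.11, 10.74 and 11.94. The control samples again lay on both sides of the FGF18 samples.

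ANKRD1, a muscle ankyrin repeat protein driven by YAP, had -0.16, 0.66 and -0.26, with a mean of 0.08 ± 0.51. As in CYR61, replicate 2 was on the other side from the rest. AMOTL2, a scaffold that binds YAP and is itself a target, was -0.04 ± 0.05 with a probe above background on 5 arrays in each channel. LATS2, the kinase that phosphorylates YAP and is also induced by it, had 0.15, -0.80 and 0.01 by its brightest probe and -1.31, -0.09 and 0.23 by the next. The means of these probes, -0.22 and -0.39, had the same sign, but the replicate that gave it differed.

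The SD over replicates ran from 0.04 (MYH9) to 1.92 (ARPC1A), with a median of 0.33, against 0.22 for all genes above background. The members' probes were bright, and 35 of 46 were brighter than the median of genes above background. In that brighter set of 6100 genes the median SD was 0.35. An SD of at least 0.5 was found for 15 members, which is 32.6% against 17.3% of genes above background, and among brighter probes for 14 of 35, 40.0% against 29.6%. The 10 with the widest spread were ARPC1A, ARPC1B, TPM3, TPM2, ACTB, TAGLN2, ROCK2, CNN1, ARPC3 and TLN1.

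**Figure D3:**
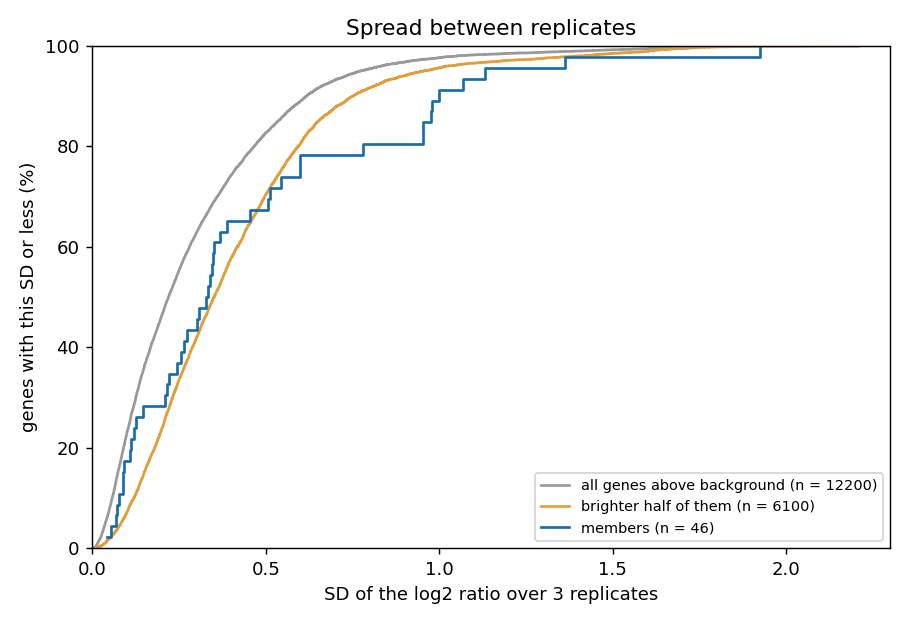
Cumulative share of genes (percent) by the SD of the log2 ratio over 3 replicates, for the 46 members, all 12200 genes above background and the 6100 with brighter probes. The members' median of 0.33 lies near that of the brighter genes, 0.35, and at the wider SDs their curve lies mostly under both others.

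These wide ratios were repeated by the dye swap within a replicate. The 2 arrays of a replicate had the same sign for 82.6% of the members in replicate 1, 76.1% in replicate 2 and 69.6% in replicate 3, against 66.0%, 73.8% and 53.8% of genes above background. Among brighter probes these shares were 88.6%, 88.6% and 68.6% of the members against 81.5%, 86.8% and 62.5% of genes. Across the 46 members the 2 arrays correlated at 0.95, 0.91 and 0.37 in replicates 1, 2 and 3, and across all genes above background at 0.75, 0.83 and 0.41. These correlations are across genes that share the same RNA and are descriptions only. In replicate 1, 4 members were at least 2-fold from 1 on both arrays, ARPC3 and TPM3 higher and ARPC1A and ARPC1B lower. They are 8.7% of the members, against 1.58% of genes above background and 2.72% of those with brighter probes. In replicate 2 there were 5, ARPC1A and ROCK2 higher and TAGLN2, TPM2 and CNN1 lower, or 10.9% against 4.26% and 7.95%. In replicate 3 there was none, against 0.852% and 1.7%. Over any replicate there were 8 such members, 17.4% against 5.81%, and among brighter probes 20.0% against 10.7%.

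Replicates 1 and 2 often lay on opposite sides. There were 13 members higher on both arrays of replicate 1 and lower on both of replicate 2: ACTB, ARPC4, CFL1, VCL, TLN1, ZYX, TAGLN2, TPM2, TPM3, MYL6, CNN1, LATS2 and RHOA. They are 28.3% of the members against 15.3% of genes above background, and 34.3% against 20.9% among brighter probes. The opposite order, lower in replicate 1 and higher in replicate 2, was found for 8 members, ACTN1, ARPC1A, ARPC1B, ARPC5, CAPZA1, CYR61, ANKRD1 and ROCK2. They are 17.4% against 19.0%, and 20.0% against 24.3% among brighter probes. Across the 46 members replicates 1 and 2 correlated at -0.46, replicates 1 and 3 at -0.08 and replicates 2 and 3 at 0.06, while across the 12200 genes above background these values were -0.26, -0.07 and 0.40. The members are not independent of each other, and these values too are descriptions.

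**Figure D4:**
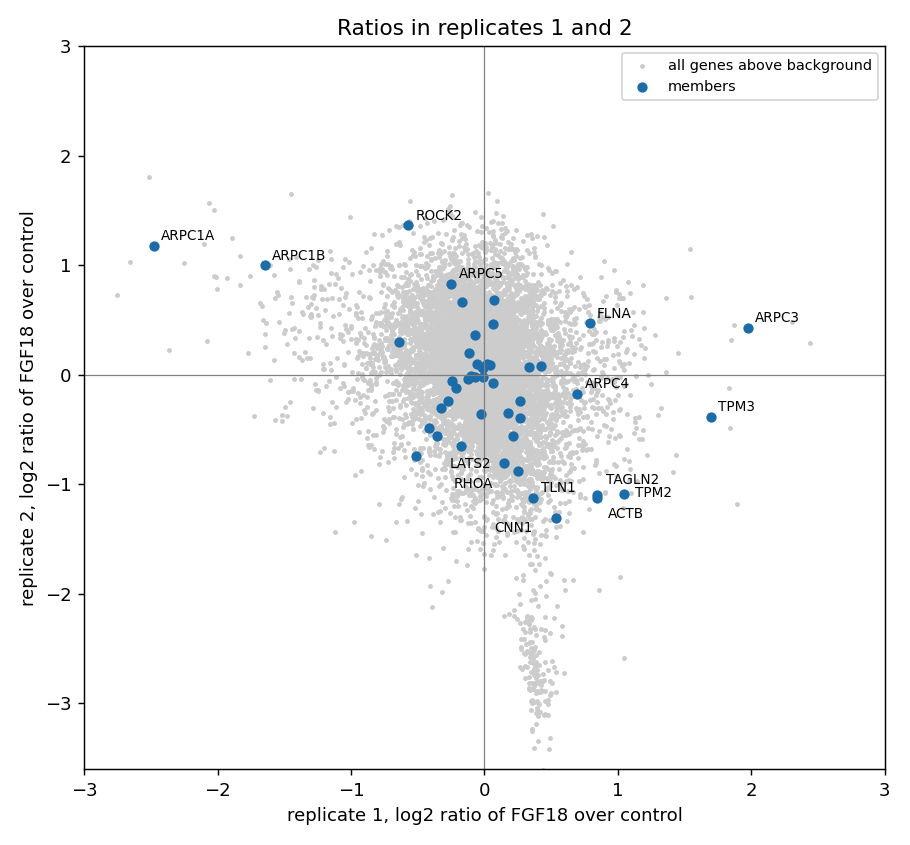
Log2 ratio of FGF18 over control in replicate 2 (vertical) against replicate 1 (horizontal), with the 46 members in blue over all genes above background in grey; each dot is 1 gene and each ratio the mean of 2 arrays. ACTB, TAGLN2 and TPM2 lie together at the lower right, with replicate 1 ratios of 0.84, 0.84 and 1.04, and ARPC1A and ARPC1B lie at the upper left.

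In most members the control samples varied more between replicates than the FGF18 samples. The SD of the log2 level was larger in the control for 38 of 46 members, which is 82.6% against 71.0% of genes above background, and among brighter probes for 85.7% against 77.8%. Its median over the members was 0.45 in control and 0.18 in FGF18 samples. ROCK2 was the exception among the 10 widest members, with an SD of 0.604 in FGF18 and 0.467 in control samples. Its FGF18 levels were 8.10, 9.28 and 8.93 and its control levels 8.67, 7.92 and 8.77. For TLN1 the SD was 0.369 in FGF18 and 1.13 in control samples, and for TPM3 it was 0.157 and 1.25. The levels of both channels come from shared arrays.

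**Figure D5:**
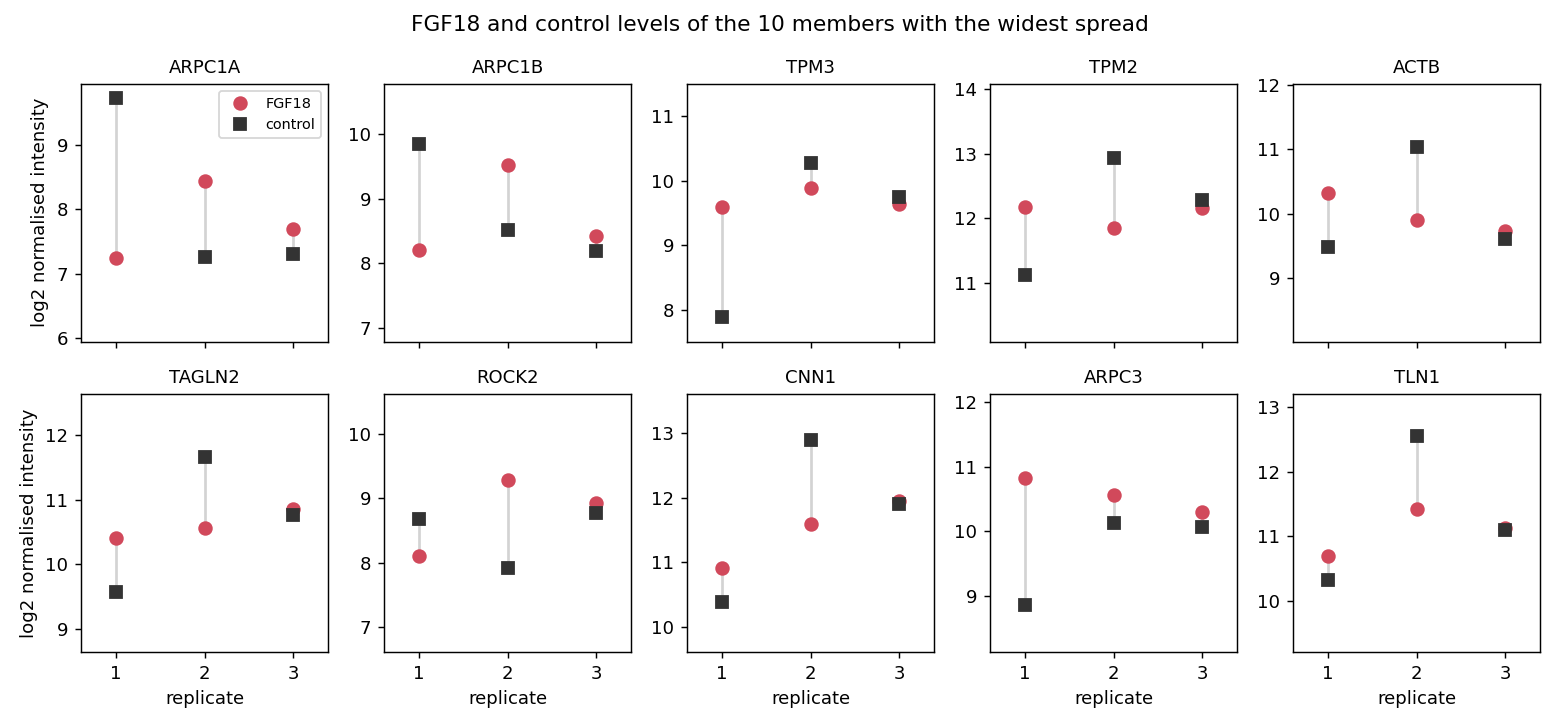
Log2 normalised intensity in the FGF18 channel (circles) and the control channel (squares) in each of the 3 replicates, for the 10 members with the widest spread, each point the mean of 2 arrays. In ACTB, TPM2, TAGLN2, CNN1 and TLN1 the control is lowest in replicate 1 and highest in replicate 2, and in ARPC1A and ARPC1B it is highest in replicate 1.

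Other genes of the same pathways were read from lists that held no member. Of the SRF and MRTF list, 29 of 32 genes were on the array and 21 were above background, with a median ratio of -0.08. None of the 21 passed the test in either direction, and 5 were higher and 4 lower in all 3 replicates, where 12.5% of genes above background were higher and 11.2% lower. LIMK1, the kinase that inactivates cofilins and the gene of this list with the lowest mean, added after its values were seen, had 0.32, -2.52 and -1.03, a mean of -1.08 ± 1.42. The lowest mean of a member was -0.45. MYLK, myosin light chain kinase, had -0.31, -0.23 and -0.15, ACTC1, cardiac alpha-actin, -0.19 ± 0.03, and CSRP2, a LIM protein of muscle, 0.29, 0.36 and 0.11. These 3 of 21 were the genes of the list at an unadjusted p under 0.05, against 4.32% of genes above background, each with an adjusted p of 0.986 in limma. SRF itself, added after its values were seen, had 0.13, -0.58 and -0.09, so replicate 2 was again the lowest.

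Of the Hippo and YAP list, 23 of 26 genes were on the array and 17 were above background, with a median of -0.09. None of the 17 passed the test in either direction, and 1 was higher and 6 were lower in all 3 replicates, against 12.5% and 11.2% of genes above background. TEAD1, a DNA-binding partner of YAP, had -0.26, -0.46 and -0.13, a mean of -0.28 ± 0.17. WWC1, the Hippo scaffold KIBRA, had -0.58, -1.33 and -0.04, and STK3, the Hippo kinase MST2, had -0.16 ± 0.12. WWTR1, the YAP paralogue TAZ, added after its values were seen, had -0.07 ± 0.11.

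Of 36 other actin regulators, 34 were on the array and all 34 were above background, with a median of -0.02. None of the 34 passed in either direction, and 2 were higher and 6 lower in all 3 replicates, against the same 12.5% and 11.2%. MYL12B, a regulatory light chain of non-muscle myosin, had -0.33, -0.28 and -0.14, WASL, the N-WASP activator of Arp2/3, -0.17 ± 0.10, and EVL, a filament elongation factor, 0.67, 0.48 and 0.02. RHOC, a small GTPase and the gene of this list with the lowest mean, added after its values were seen, had 0.47, -2.70 and -1.18, a mean of -1.13 ± 1.59. RHOC had 5 probes, of which only the brightest was read here. Values like those of RHOC and LIMK1 occurred outside the actin and pathway lists, in genes also picked after their values were seen. NR5A2 had 0.50, -2.81 and -1.33, and ABAT had 0.30, -2.54 and -1.02. In replicate 3, 104 of 12200 genes above background were at least 2-fold lower on both arrays, and 0 were at least 2-fold higher.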

How the data were processed

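Total RNA was amplified by 2 rounds of T7 transcription and labelled chemically with Cy3 or Cy5, per the labels' protocols. The deposited scanner files give the mean intensity of each spot and its local background in both channels, without normalization, per the file headers. The authors' deposited table gives 1 log2 ratio per probe and array, by a method not given in the sources used here. Each column correlated at 1 with background subtraction plus loess and had FGF18 as numerator, with column medians from -0.00375 to 0.0019, and the table served as an alternative only.

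With limma 3.58.1 in R 4.3.3, background was corrected by normexp (offset 50), which shrinks ratios of dim probes, and loess (span 0.3) was applied per array, giving weight 0 to 1418 control spots. Levels came from loess plus Aquantile between arrays. Ratios were turned to FGF18 over control and the 2 arrays of a replicate averaged; lmFit and eBayes were run on 3 replicates, with Benjamini-Hochberg adjustment over 15229 genes and a threshold of 0.05. Arrays that share a title number were treated as a dye swap of 1 replicate, which the labels do not state outright. The pairing comes from those numbers. Same-numbered FGF18 and control levels deviated from their group means with correlations of 0.47, 0.45 and 0.46, on shared arrays. Above background meant over 2 SD above the mean of the 153 negative control spots, on at least 3 arrays of 1 condition for a gene.

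Names are those of the platform annotation, where 21790 probes had 1 symbol, 22004 none and 0 several. RefSeq (ARS-UCD2.0) listed 14114 of the symbols as current and 982 as synonyms, and 133 had no match. The members and lists were chosen with earlier results of these data known. Named genes were those past the threshold, the 10 members with the lowest p, the 10 with the widest spread, a panel of 15 genes, other probes that differed in sign or by over 0.5, and the 3 lowest p of each further list. The fit was tested on simulated data. The 23 alternatives changed background correction, normalization, filter, replicates, dyes, variance prior and probe rule. Promoter motifs were not analysed here.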

Additional observations from a re-analysis of the deposited data

Results flagged for a closer look

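ACTR3, the ARP3 subunit of the Arp2/3 complex, had opposite signs in the dye orientations: its log2 ratio was above 0 on all 3 arrays with FGF18 in Cy5 (mean 0.30) and below 0 on all 3 with the control in Cy5 (mean -0.26), a dye term of 0.284. AMOTL2, the YAP-binding scaffold, showed the reverse, with means of -0.14 and 0.07 and a dye term of -0.106. Both were picked by the signs of the arrays, which is no test. The dye term itself, tested in limma without a term for replicate, had an adjusted p of 0.0867 for ACTR3 and 0.288 for AMOTL2. Neither passed in that fit. With replicate as a fixed term some members passed, and the values of both genes in that fit are not given here.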

How the results depend on the processing

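No gene and no member passed an adjusted p of 0.05 in limma under any of the 23 alternatives, and the smallest adjusted p of a member was 0.266, with the 6 arrays as units and a dye term. Both changes were made at once there. The number of members at an unadjusted p under 0.05, 2 as reported, was 1 without background correction, 1 with only genes above background, 1 with the trend and robust prior, 4 with the 6 arrays and a replicate block, 8 with the 6 arrays as units and a dye term, 5 on the FGF18-in-Cy5 arrays alone and 1 on the control-in-Cy5 arrays alone. It ran from 0 to 4 when a replicate or array was left out. The share of all genes at that p under each alternative is not given here, so these counts are no result about the members. The number with 1 sign in all replicates, 12 as reported, was 7 under median centring and 8 to 26 with a replicate or array left out. Fewer signs need to be the same where a replicate is left out. The share over all genes was not counted under these alternatives, so these sign counts are no result about the members either. The median of members, -0.0292 as reported, became 0.0256 under median centring and ran from -0.0747 without replicate 1 to 0.0172 without replicate 2. The dye orientation term, 66 genes as reported, passed in 361 with an offset of 16 and in 110 with plain subtraction. Without background correction it passed in 239, under median centring in 0 and with any replicate left out in 0. With the replicate block fixed it passed in 6021 of 15229 genes and in 13 of 46 members. Of 1058 values of single members under the alternatives, 26 moved by at least 1 SD and 93 turned sign, 20 of these without replicate 2. With 3 replicates an exact test of 1 gene cannot go below p = 0.25. The cause of these shifts was not tested.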
